A study of Mus musculus with 30 samples.

Results

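Potassium channel genes were defined by symbol: genes whose symbol begins with Kcn, followed by letters and a number, and which were measured on both kinds of array. There were 79 such genes among the 16553 genes measured at both ages, and 1 further gene with a matching symbol is not analysed here. They divide into 15 inward rectifiers (Kcnj), 12 leak channels with paired pore domains (Kcnk), 9 electrically silent modifiers (Kcnf, Kcng, Kcns, Kcnv), 7 Shaker-type genes (Kcna) and smaller groups of 2 to 5 genes. For each gene the brightest probe set that names only that gene was used. Of the 79, 26 were among the dimmest 30% on the E14.5 arrays, and 12 on the P0.5 arrays.

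Potassium channels set the resting potential of a cell and repolarise it after an action potential. Pore-forming subunits open with voltage (Kcna, Kcnc, Kcnd, Kcnh, Kcnq), with internal calcium or sodium (Kcnn, Kcnma, Kcnt), at negative potentials (Kcnj) or conduct at rest (Kcnk), and auxiliary subunits (Kcnab, Kcne, Kcnip, Kcnmb) change their gating and their transport to the membrane. In developing cortical neurons their levels rise and shift as firing properties mature, and Kir channels of astrocytes take up potassium released by neurons.

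The arrays compared mice homozygous for a null allele of Tbr1 (KO) with wild-type mice (WT), all CD1, the nulls being offspring of heterozygous parents. Tbr1 encodes a T-box transcription factor of early-born cortical neurons. Tissue was whole E14.5 neocortex, with 3 KO and 3 WT arrays, or frontal, parietal or occipital brain at P0.5, with 4 KO and 4 WT arrays for each region. The allele is constitutive, so every cell lacks Tbr1, and the labels state neither the sex of the mice nor whether same-numbered arrays came from 1 animal. p-values therefore measure the spread between these arrays. Values are log2 signals, and a gene was called where limma's Benjamini-Hochberg adjusted p over all genes of the comparison was under 0.05.

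Tbr1 signal was lower in KO in every P0.5 region, by 0.63 (frontal), 0.58 (parietal) and 0.84 (occipital) on the log2 scale, with no overlap between genotypes, and 1.29 lower at E14.5 (limma adjusted p = 0.85), where KO replicate 1 read 8.69 against 8.89 to 9.36 in WT. The arrays also differed in sex-linked signal. In frontal tissue the mean of 3 Y-linked genes was 5.09 to 5.99 in the 4 KO arrays and 8.99 to 9.15 in the 4 WT arrays, while Xist, expressed from the inactive X, was 12.0 to 12.2 in KO and 5.65 to 6.39 in WT. Genotype and sex-linked signal thus cannot be told apart from the frontal arrays alone. In parietal and occipital tissue both Y-linked levels occurred within the KO groups, and in parietal tissue within WT as well. Xist lay between the 2 frontal levels, at 7.75 to 8.77, on occipital KO replicates 2 and 4, parietal KO replicates 1 and 3 and parietal WT replicate 3. Their Y-linked signal was high (9.02 to 9.18), so a Y-linked covariate does not set them apart from arrays with low Xist. P0.5 frontal WT replicate 4 and P0.5 parietal KO replicate 2 lay farthest from their groups (median absolute deviations 0.151 and 0.134, against 0.0389 to 0.0897 for the other 22 P0.5 arrays). The fit without both was added after seeing the data. RNA came from bulk tissue, so fewer cells of a type and less RNA per cell cannot be told apart.

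At P0.5, 19 of the 79 potassium channel genes were called between KO and WT in at least 1 region. Kcnd2, a pore subunit of A-type current, and its partner Kcnip1 were higher in KO in frontal and parietal tissue, Kcnip1 in occipital tissue as well, while the related partner Kcnip2 was lower in frontal and parietal tissue. Kcnt1, a sodium-activated channel, was higher in all 3 regions. Kcnh1, a voltage-gated channel of the EAG group, was lower in KO in frontal and parietal tissue, by 2.12-fold in parietal tissue. In frontal tissue 15 members were called (19%, against 7.52% of all 19938 genes), 5 higher (all genes 4.7%) and 10 lower (all genes 2.81%). In parietal tissue it was 7 (8.86%, against 1.81%), 3 higher (all genes 1.06%) and 4 lower (all genes 0.747%), and in occipital tissue 5 (6.33%, against 1.34%), 4 higher (all genes 0.762%) and 1 lower (all genes 0.577%). Of the 19, 13 were called in 1 region, 4 in 2 regions and 2, Kcnip1 and Kcnt1, in all 3. Members whose KO arrays all lay above all WT arrays numbered 5 in frontal tissue (all genes 6.42%), 5 in parietal (all genes 3.68%) and 9 in occipital (all genes 3.76%). Those whose KO arrays all lay below numbered 11 (all genes 6.5%), 9 (all genes 3.73%) and 0 (all genes 2.5%). By unadjusted p under 0.05 it was 26, 22 and 20 members, against 27.5%, 9.32% and 10.8% of all genes. The median difference of the 79 genes was −0.11 in frontal tissue, −0.042 in parietal and 0.014 in occipital, beside −0.034, −0.011 and 0.012 for all genes.

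**Figure D1:**
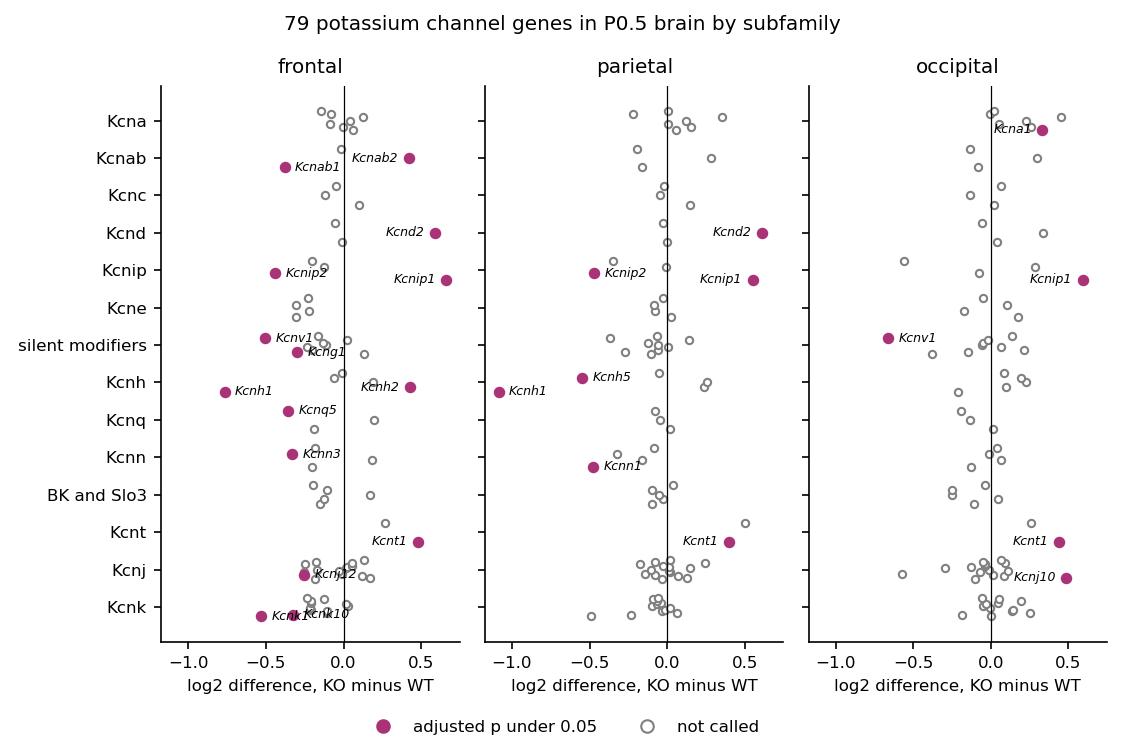
Each point is 1 of the 79 potassium channel genes, placed by its log2 difference KO minus WT (horizontal axis) in frontal, parietal and occipital tissue at P0.5 and by subfamily (vertical axis). Filled, named points are the 15, 7 and 5 genes called by limma (adjusted p under 0.05), and open points are not called. The point farthest from 0 is Kcnh1 in parietal tissue (−1.09), and 10 of the 12 Kcnk genes lie left of 0 in frontal tissue.

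The number of lower calls in frontal tissue was sensitive to single arrays and to scaling. It was 4 without KO replicate 1, 3 without KO replicate 3, 2 without KO replicate 4 and 2 without WT replicate 3. After each array's median was subtracted, 5 members were higher and 4 lower, and the lower calls of Kcnv1, Kcnab1, Kcnq5, Kcnn3, Kcng1 and Kcnj12 ended. Those of Kcnv1, Kcnq5 and Kcnn3 ended without limma's intensity trend as well. When the mean Y-linked signal was added to the fit as a covariate, 2 frontal calls remained, Kcnt1 and Kcnh2, both higher (247 genes called in all, against 1499 without it). The 10 lower members stayed below WT in that fit. The differences of Kcnk1, Kcnip2, Kcnab1, Kcnn3 and Kcnk10 were larger in it (Kcnk1 −0.59, against −0.53 without the covariate). Those of Kcnh1, Kcnv1, Kcnq5, Kcng1 and Kcnj12 were smaller (Kcnh1 −0.60, against −0.77). With the same covariate 6 members were called in parietal and 5 in occipital tissue. Single arrays moved the smaller counts too. In parietal tissue the higher count was 5 without KO replicate 2, and the lower count was 2 when KO replicate 4 or either of WT replicates 1 and 2 was left out, and 1 when WT replicate 4 was. In occipital tissue the higher count was 2 without KO replicate 1 or 2 and 1 without WT replicate 2. The lower count there was 0 without any of the 4 KO arrays or WT replicate 2 or 3, and 3 without WT replicate 1.

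The upstream sequence of 4 members that moved is shown because these genes lie within the same current system (Kcnd2, Kcnip1, Kcnip2) or fell most (Kcnh1). Sequences are from RefSeq (GRCm38.p6), the 250 bases before an annotated start, on the gene's strand. They are chr6:21215096-21215345 (+) for Kcnd2, chr11:33680683-33680932 (−) for 1 of the 3 starts of Kcnip1, chr19:45816064-45816313 (−) for Kcnip2 and chr1:192190527-192190776 (+) for Kcnh1. Capitals mark AGGTGT, letters of the T-box core, searched on both strands (ACACCT in reverse).
Kcnd2: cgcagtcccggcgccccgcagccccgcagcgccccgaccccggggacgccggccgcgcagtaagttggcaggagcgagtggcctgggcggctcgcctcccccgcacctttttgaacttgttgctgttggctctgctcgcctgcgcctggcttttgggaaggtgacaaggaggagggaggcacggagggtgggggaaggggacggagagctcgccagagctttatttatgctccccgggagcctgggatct
Kcnip1: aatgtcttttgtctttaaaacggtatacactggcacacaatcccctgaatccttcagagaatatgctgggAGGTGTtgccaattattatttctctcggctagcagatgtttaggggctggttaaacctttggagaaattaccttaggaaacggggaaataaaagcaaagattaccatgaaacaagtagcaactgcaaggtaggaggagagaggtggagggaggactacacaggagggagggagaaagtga
Kcnip2: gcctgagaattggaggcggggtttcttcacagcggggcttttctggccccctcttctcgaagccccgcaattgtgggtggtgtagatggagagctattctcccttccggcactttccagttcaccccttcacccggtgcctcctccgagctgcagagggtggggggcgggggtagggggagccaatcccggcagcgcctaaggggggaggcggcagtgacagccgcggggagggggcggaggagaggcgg
Kcnh1: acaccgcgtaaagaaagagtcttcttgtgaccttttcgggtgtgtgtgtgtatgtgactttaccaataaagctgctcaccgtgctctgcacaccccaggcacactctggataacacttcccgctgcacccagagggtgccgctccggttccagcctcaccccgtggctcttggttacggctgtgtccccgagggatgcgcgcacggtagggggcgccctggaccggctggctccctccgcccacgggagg
The motif occurs once in the Kcnip1 sequence, which is shown because it is the only 1 of that gene's 3 windows with a match, and in none of the other 3 sequences. Over windows from 250 bases before to 50 after the start, it was in 13.7% of all 32851 windows, in 15 of 85 windows (17.6%) of the 60 members with a window, and in 2 of 24 windows (8.33%) of the 15 called members with one. Those 2 belong to Kcnip1 and Kcnn1, so the share among called members was not above the share among all windows. A match of these letters is a description of the sequence only.

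Kcnd2 encodes a Shal-type pore subunit that carries the fast, A-type potassium current of dendrites. In frontal tissue its signal was 10.33, 9.88, 9.80 and 10.19 in the KO arrays and 9.51, 9.72, 9.33 and 9.27 in the WT arrays. Every KO array lay above every WT array, and the difference was 0.59 ± 0.11 (SE, n = 4 and 4; 1.51-fold, limma adjusted p = 0.00156). In parietal tissue the KO arrays read 9.99, 10.16, 10.16 and 10.33 and the WT arrays 9.66, 9.67, 9.36 and 9.50, again without overlap, a difference of 0.61 ± 0.11 (1.53-fold, limma adjusted p = 0.00259). In occipital tissue the groups overlapped, at 9.97 to 10.34 in KO and 9.65 to 9.99 in WT, and the difference of 0.33 was not called (limma adjusted p = 0.203). The frontal and occipital differences were not shown to differ (0.26, limma adjusted p = 0.352). With the Y-linked covariate the frontal value was 0.47 (limma adjusted p = 0.183) and the parietal value 0.57 (limma adjusted p = 0.00807). The other Shal genes, Kcnd1 and Kcnd3, differed by −0.054 to 0.041 between genotypes in the 3 regions and were not called.

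Kcnip genes encode cytosolic calcium-binding proteins that bind Shal subunits and bring them to the cell surface. Kcnip1 was higher in KO in all 3 regions. Its signal was 8.43, 8.13, 8.10 and 8.50 in frontal KO against 7.86, 7.80, 7.40 and 7.47 in WT, 8.10, 8.34, 8.19 and 8.37 in parietal KO against 7.65, 7.72, 7.73 and 7.71, and 8.33, 8.17, 8.20 and 8.01 in occipital KO against 7.95, 7.57, 7.43 and 7.39. The genotypes did not overlap in any region. The differences were 0.66 ± 0.12, 0.55 ± 0.12 and 0.59 ± 0.12 (SE; limma adjusted p = 0.000642, 0.00906 and 0.00734). With the Y-linked covariate the frontal difference was 0.58 and no longer called (limma adjusted p = 0.089), and the other 2 stayed called.

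Kcnip2, which encodes another Shal partner, went the other way. In parietal tissue its signal was 8.13, 8.08, 8.13 and 8.25 in KO against 8.62, 8.60, 8.56 and 8.70 in WT. The 2 groups were tight and did not overlap, and KO was lower by 0.47 ± 0.11 (SE; limma adjusted p = 0.0153; 0.0629 without WT replicate 4, at −0.45). In frontal tissue KO read 8.27, 8.04, 8.13 and 8.41 and WT 8.76, 8.62, 8.85 and 8.38, so that WT replicate 4 fell inside the KO range. The frontal difference was −0.44 ± 0.11 (limma adjusted p = 0.0117), and without WT replicate 3 it was −0.37 (limma adjusted p = 0.056). The occipital difference was −0.079 (limma adjusted p = 0.844). Kcnip3, whose protein also acts in the nucleus as a calcium-sensitive repressor, and Kcnip4 were not called between genotypes; the occipital value of Kcnip4 was −0.56.

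**Figure D2:**
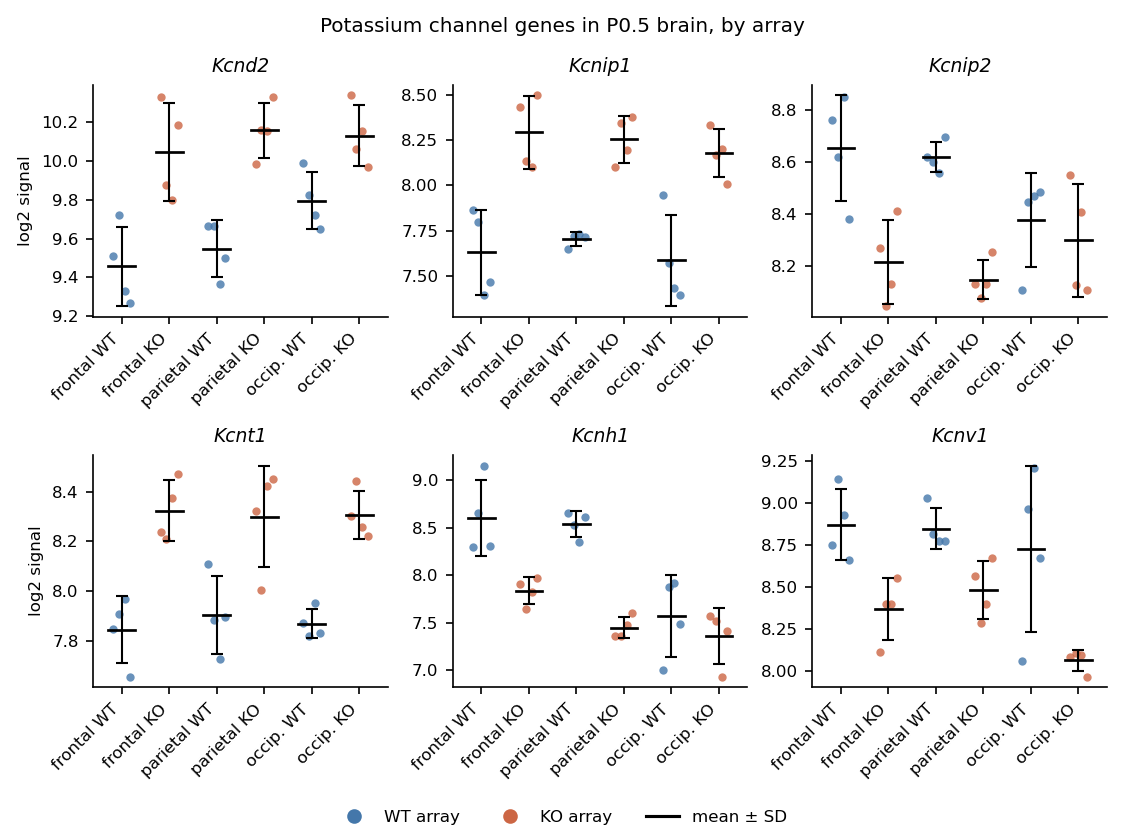
Log2 signal (vertical axis) of 6 members on each P0.5 array, by region and genotype (horizontal axis); points are arrays, long bars are means and error bars are SD, and each panel has its own scale. KO points lie above WT points for Kcnip1 in all 3 regions and below them for Kcnh1 in frontal and parietal tissue, while the occipital WT arrays of Kcnv1 spread from 8.06 to 9.21.

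Of the 7 Shaker-type genes, 0 were called in frontal or parietal tissue and 1 in occipital tissue (14.3%, against 1.34% of all genes), and of their 3 cytosolic beta subunits 2 were called in frontal tissue (66.7%, against 7.52%). In occipital tissue Kcna1, which encodes an axonal low-threshold channel, was 7.57, 7.68, 7.48 and 7.64 in KO and 7.21, 7.24, 7.23 and 7.36 in WT, higher by 0.33 ± 0.08 (SE; limma adjusted p = 0.0247) and without overlap. That call ended without any of 6 single arrays (KO replicates 1, 2 and 4, WT replicates 1, 2 and 3), with values of 0.30 to 0.34 and limma adjusted p of 0.0517 to 0.0994. Of the beta subunits, which bind the cytosolic face of Shaker channels, Kcnab2 was higher in frontal KO (8.53 to 8.68 in KO, 7.99 to 8.30 in WT; 0.42, limma adjusted p = 0.00138; 0.0751 with the Y-linked covariate). It also lay above WT without overlap in parietal and occipital tissue, at 0.28 and 0.29, not called (limma adjusted p = 0.073 and 0.0746). Kcnab1 was lower in frontal KO, at 7.86 to 8.12 against 8.17 to 8.58 in WT (−0.38, limma adjusted p = 0.0355). Leaving out any of 6 frontal arrays (KO replicates 1, 3 and 4, WT replicates 2, 3 and 4) ended that call, with values of −0.404 to −0.305 and limma adjusted p of 0.0556 to 0.126.

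The Kcnh genes, which encode the EAG, ERG and ELK voltage-gated channels, moved in both directions. Kcnh1 (EAG) had the largest genotype difference of any member at P0.5. In parietal tissue it was 7.36, 7.36, 7.48 and 7.60 in KO and 8.66, 8.53, 8.35 and 8.61 in WT. The groups did not overlap, and KO was lower by 1.09 ± 0.18 (SE; 2.12-fold, limma adjusted p = 0.000477). In frontal tissue KO read 7.91, 7.64, 7.82 and 7.97 and WT 8.30, 8.65, 9.15 and 8.31, a difference of −0.77 ± 0.18 without overlap (1.70-fold, limma adjusted p = 0.00692; −0.60 and 0.33 with the Y-linked covariate). In occipital tissue the groups overlapped, at 6.93 to 7.57 in KO and 7.00 to 7.91 in WT (−0.21, limma adjusted p = 0.722). Of 6 striatal markers, Drd1 and Ppp1r1b were also called lower in KO in frontal tissue (−1.08 and −0.77) and in parietal tissue (−1.04 and −0.44), and Penk was called higher in frontal tissue (0.57). In occipital tissue Drd1 was lower by 0.61. The mean level of the striatal list was 7.56 to 7.93 in frontal KO against 7.57 to 7.87 in WT, and 7.45 to 7.77 in parietal KO against 7.64 to 8.03 in WT. The part of striatal tissue in the Kcnh1 difference was not tested.

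Kcnh5, the second EAG gene, was called in parietal tissue, where it was lower in KO, at 8.37 to 8.76 against 8.91 to 9.22 in WT (−0.55 ± 0.14, SE; limma adjusted p = 0.0334). Its frontal and occipital differences were −0.062 and 0.19. The parietal call ended without any of 6 arrays (KO replicates 1, 3 and 4, WT replicates 1, 2 and 4), with values of −0.57 to −0.50 and limma adjusted p of 0.0609 to 0.135. Kcnh2, which encodes the ERG channel, was higher in frontal KO. Its signal was 8.16, 8.26, 8.27 and 8.14 in KO and 7.95, 7.76, 7.72 and 7.68 in WT, without overlap (0.43 ± 0.07, SE; limma adjusted p = 0.000163; 0.51 and 0.00342 with the Y-linked covariate). The parietal and occipital differences of Kcnh2 were 0.24 and 0.10, not called. The ELK genes Kcnh3 and Kcnh8 were not called between genotypes.

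Among silent modifiers, which form no channel alone and change the gating of other voltage-gated subunits, Kcnv1 was lower in frontal and occipital KO. In frontal tissue it was 8.11, 8.40, 8.40 and 8.55 in KO and 8.75, 9.14, 8.93 and 8.66 in WT (−0.50 ± 0.16, SE; limma adjusted p = 0.0479), without overlap. In occipital tissue it was 8.09, 8.11, 8.10 and 7.97 in KO and 8.06, 8.96, 9.21 and 8.67 in WT (−0.66 ± 0.16, limma adjusted p = 0.0259), so that WT replicate 1 sat among the KO arrays. The frontal call ended with the replicate number as a block (limma adjusted p = 0.0512) and without any of KO replicates 1 to 4 or WT replicates 2 and 3 (values −0.57 to −0.41, limma adjusted p 0.052 to 0.172). The occipital call ended without any of KO replicates 1 to 4 or WT replicates 2 and 3 (values −0.68 to −0.50, limma adjusted p 0.053 to 0.169). Kcng1 was lower in frontal KO by 0.30 (limma adjusted p = 0.0356), a call that ended without KO replicate 1, 3 or 4 or WT replicate 3 (values −0.29 to −0.24, limma adjusted p 0.0726 to 0.128). The other 7 silent modifiers were not called between genotypes in any region.

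Channels opened by internal ions gave 3 genes. Kcnt1 encodes the sodium-activated Slack channel. Its signal was 8.24, 8.21, 8.38 and 8.47 in frontal KO against 7.85, 7.91, 7.97 and 7.65 in WT, and 8.30, 8.44, 8.26 and 8.22 in occipital KO against 7.87, 7.82, 7.95 and 7.83 in WT. In both regions every KO array lay above every WT array, by 0.48 ± 0.10 and 0.44 ± 0.10 (SE; limma adjusted p = 0.00188 and 0.0137). In parietal tissue the ranges overlapped, at 8.003 to 8.45 against 7.73 to 8.11 (0.40, limma adjusted p = 0.024). The frontal call of Kcnt1 held with the Y-linked covariate (0.58, limma adjusted p = 0.0181) and without any single array. The occipital call ended without KO replicate 2 or WT replicate 2 (0.39 to 0.42, limma adjusted p 0.0622 and 0.0626), and the parietal call without KO replicate 1, 3 or 4 or WT replicate 2, 3 or 4 (0.34 to 0.39, limma adjusted p 0.0685 to 0.127). Its paralog Kcnt2, encoding Slick, differed by 0.27, 0.50 and 0.26 in frontal, parietal and occipital tissue and was not called.

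Of the calcium-activated channels, Kcnn1 was lower in parietal KO (7.76 to 8.26 against 8.43 to 8.64 in WT; −0.48, limma adjusted p = 0.0248) and Kcnn3 in frontal KO (8.06 to 8.35 against 8.41 to 8.80; −0.33, limma adjusted p = 0.0491). Both encode small-conductance channels that shape the afterhyperpolarization, and neither overlapped between genotypes. The Kcnn1 call ended without KO replicate 2 or 4 or WT replicate 1, 2 or 4 (values −0.49 to −0.38, limma adjusted p 0.0597 to 0.112), and without both arrays that stood apart (−0.38, limma adjusted p = 0.083). The Kcnn3 call ended without any frontal array other than WT replicate 2 (values −0.38 to −0.245, limma adjusted p 0.0548 to 0.177). None of the 5 genes of the large-conductance group was called.

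Of the leak channel genes, 2 of 12 were called in frontal tissue (16.7%, against 7.52% of all genes), both lower, and 0 in the other regions. In frontal tissue 10 of the 12 lay below WT, with a median of −0.21. Over all genes the median was −0.034, and 8714 of 19938 lay above WT. With the Y-linked covariate 11 of the 12 lay below WT, with a median of −0.034 (all genes −0.0067). Kcnk1, which encodes the leak channel TWIK, was 8.64, 8.56, 8.50 and 8.57 in frontal KO and 9.20, 9.25, 9.01 and 8.92 in WT. The groups did not overlap, and KO was lower by 0.53 ± 0.14 (SE; limma adjusted p = 0.0186; 0.05 and 0.0508 without KO replicate 3 or 4, at −0.53 and −0.51). In parietal tissue Kcnk1 was also below WT without overlap (8.62 to 8.84 against 9.11 to 9.23; −0.49), but not called (limma adjusted p = 0.069), and in occipital tissue the difference was 0.0040. Kcnk10, which encodes a mechanically and lipid-gated leak channel, was lower in frontal KO by 0.33 (limma adjusted p = 0.0107; 0.0513 and 0.0536 without KO replicate 4 or WT replicate 3, at −0.29 and −0.28). The other 10 Kcnk genes were not called between genotypes.

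Of the 15 Kcnj genes, 1 was called in frontal tissue (6.67%, against 7.52% of all genes), 0 in parietal and 1 in occipital tissue (6.67%, against 1.34%). Kcnj12, an inward rectifier, was lower in frontal KO by 0.26 (6.34 to 6.61 against 6.64 to 6.80; limma adjusted p = 0.0381). The call also ended with the replicate block (limma adjusted p = 0.0544) and without KO replicate 1, 3 or 4 or WT replicate 3 or 4 (values −0.26 to −0.22, limma adjusted p 0.0774 to 0.146). Kcnj10, which encodes the inward rectifier of astrocytes, was 7.96, 7.94, 7.80 and 7.84 in occipital KO and 7.55, 7.31, 7.44 and 7.29 in WT. It was higher in KO by 0.49 ± 0.11 without overlap (SE; limma adjusted p = 0.0148; 0.0517 to 0.0732 without KO replicate 1 or WT replicate 2 or 4, at 0.45 to 0.46). Other astrocyte genes moved with it: of 7 markers, 6 were higher in occipital KO with a median difference of 0.56, 1 of them called (Slc1a2), and their mean level was 9.64 to 9.87 in KO and 9.05 to 9.47 in WT. In frontal tissue, where Kcnj10 differed by 0.17 and was not called, 5 of the 7 markers were called higher (median 0.51; mean level 8.93 to 9.56 in KO and 8.47 to 9.27 in WT). The part of the astrocyte signal in the Kcnj10 difference was not tested.

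Kcnq5, which encodes a subunit of the M-current, was lower in frontal KO by 0.35 (9.30 to 9.58 against 9.61 to 9.98; limma adjusted p = 0.0466). That call ended without KO replicate 1, 3 or 4 or WT replicate 2 or 3 (values −0.39 to −0.30, limma adjusted p 0.0664 to 0.135). Kcnq1 and Kcnq3 were not called. No Kcnc gene, encoding fast-spiking Shaw-type channels, and no Kcne gene, encoding single-pass auxiliary subunits, was called in any region. The 4 Kcne genes lay 0.22 to 0.31 lower in frontal KO. All 4 were among the dimmest 30% of genes at P0.5 (percentiles 12.4 to 27.4 of mean signal). The frontal median of all genes was −0.034, and 0.028 with the dimmest 30% left out. Endothelial markers were lower in frontal KO (6 of 6, median −0.45, 1 called, mean level 7.72 to 8.46 against 8.07 to 9.22). Microglial markers were higher (7 of 7, median 0.32, 2 called, mean level 7.72 to 8.09 against 7.19 to 7.88). Pericyte and mural cell markers lay lower in 5 of 5 (median −0.33, 0 called; mean level 7.85 to 8.43 against 7.90 to 9.16). Of cortical glutamatergic markers 1 of 5 was called, Neurod6, lower by 0.46 (list median −0.0093), and of GABAergic interneuron markers 0 of 9 (median 0.010). The part of these cell types in the frontal potassium channel values was not tested.

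**Figure D3:**
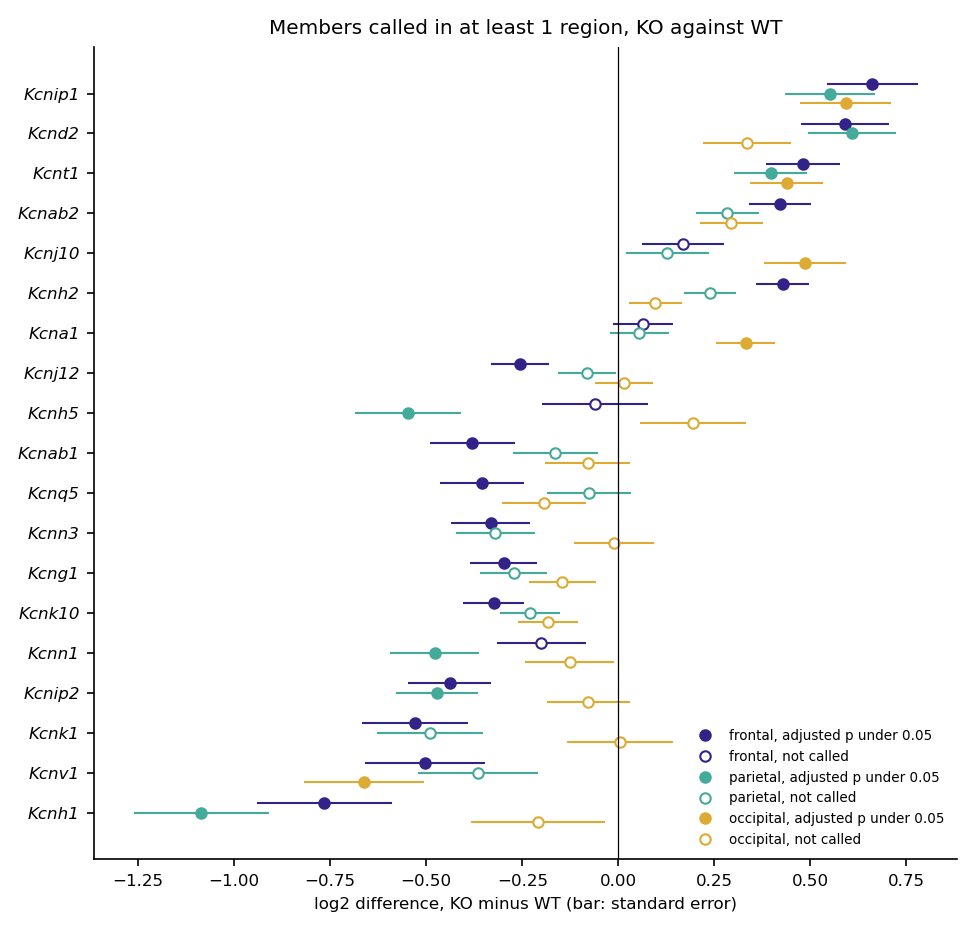
Log2 differences KO minus WT (horizontal axis) of the 19 members called in at least 1 P0.5 region, with bars of 1 standard error; colours give the region, and filled symbols are called by limma (adjusted p under 0.05). Kcnip1, Kcnd2 and Kcnt1 lie to the right of 0 in all 3 regions, and Kcnh1 reaches −1.09 in parietal tissue.

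Other genes of potassium handling that carry no Kcn symbol were read from a list of 30, of which 25 were measured at P0.5. Dpp6, whose protein is a membrane partner of Shal channels, was higher in KO by 0.40 in frontal (limma adjusted p = 0.00391) and 0.35 in parietal tissue (limma adjusted p = 0.0238), without overlap. Snap25, a SNARE protein that also binds voltage-gated potassium channels, was higher in all 3 regions, by 0.47, 0.52 and 0.34 (limma adjusted p = 6.94e-05, 5.05e-05 and 0.0103). In frontal tissue Slc12a2, a sodium, potassium and chloride importer, was higher by 0.25 (limma adjusted p = 0.0415) and Ank3, the axon initial segment scaffold, lower by 0.23 (limma adjusted p = 0.0391). In all, 4 of 25 were called in frontal tissue (16%, against 7.52% of all genes), 2 in parietal (8%, against 1.81%) and 1 in occipital (4%, against 1.34%), with medians of 0.028, 0.0051 and 0.0052.

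The regional comparison within each genotype addressed whether frontal and occipital tissue differ in channel expression. In WT, 7 members were called (8.86%, against 6.03% of all genes), 5 higher in frontal tissue (all genes 2.26%) and 2 higher in occipital tissue (all genes 3.77%). In KO it was 10 (12.7%, against 3.22%), 1 higher in frontal tissue (all genes 1.47%) and 9 higher in occipital tissue (all genes 1.76%). After subtraction of array medians the KO split was 2 and 7, and after quantile normalization 2 and 8. Kcnj2, Kcnk2 and Kcnh3 were called in both genotypes, which is 42.9% of the WT calls and 30.0% of the KO calls. Frontal arrays all lay above occipital arrays for 8 members in WT (all genes 6.21%) and 8 in KO (all genes 4.8%), and all below for 3 in WT (all genes 6.36%) and 10 in KO (all genes 5.33%). By unadjusted p under 0.05 it was 30 members in WT, against 26.7% of all genes, and 16 members in KO, against 2883 of the 19938 genes. The median over members was 0.071 in WT and −0.045 in KO, beside 0.025 and −0.022 for all genes. Without single arrays the count higher in occipital WT tissue was 4 (frontal replicate 2), 5 (occipital replicate 1) or 1 (occipital replicate 2). In KO the count higher in frontal tissue was 2 without frontal replicate 2 or occipital replicate 3, and that higher in occipital tissue was 5 without frontal replicate 4 and 4 without occipital replicate 1. These comparisons use the same frontal and occipital arrays as the genotype comparisons above.

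Kcnj2, which encodes a strong inward rectifier, had the steepest frontal bias of KO tissue. It was 8.04, 8.27, 8.01 and 7.88 in frontal WT against 7.38, 7.62, 7.66 and 7.11 in occipital WT, and 8.21, 8.09, 7.83 and 8.14 in frontal KO against 6.52, 7.62, 7.13 and 7.31 in occipital KO. In both genotypes all frontal arrays exceeded all occipital arrays, by 0.61 ± 0.16 in WT (SE; limma adjusted p = 0.0213) and 0.92 ± 0.16 in KO (limma adjusted p = 0.000635). The WT call ended without frontal WT replicate 2 or occipital WT replicate 4 (0.50 to 0.53, limma adjusted p 0.0517 and 0.0652). Parietal arrays lay at 7.68 to 7.98 in WT and 7.81 to 8.09 in KO.

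Both EAG genes were higher in frontal than in occipital WT tissue. Kcnh1 differed by 1.03 ± 0.18 (SE; 2.05-fold, limma adjusted p = 0.000632) and Kcnh5 by 0.73 ± 0.14 (limma adjusted p = 0.00193), with frontal arrays of Kcnh5 at 8.67 to 9.44 and occipital arrays at 7.77 to 8.45. In KO the differences were 0.48 for each gene, without overlap and not called (limma adjusted p = 0.169 for Kcnh1 and 0.0551 for Kcnh5). The change of the regional difference between genotypes was −0.56 for Kcnh1 (limma adjusted p = 0.224) and −0.26 for Kcnh5 (limma adjusted p = 0.433), so a difference between genotypes in the regional bias was not shown. Striatal markers Ppp1r1b (1.03) and Drd1 (0.39) and glutamatergic markers Neurod6 (0.58) and Neurod2 (0.31) were called higher in frontal WT tissue as well. In KO the glutamatergic pair was called (0.55 and 0.24) and 0 of 6 striatal markers. The glutamatergic list went both ways. Of its markers 3 of 5 were higher in frontal WT tissue (median 0.089, lowest −0.36) and 2 of 5 in frontal KO tissue (median −0.19, lowest −0.37). Of striatal markers it was 5 of 6 in WT (median 0.20) and 4 of 6 in KO (median 0.18). The part of either list in the regional values was not tested. Kcna1 was also higher in frontal WT tissue (7.55 to 7.72 against 7.21 to 7.36; 0.39, limma adjusted p = 0.00307). Kcng2, a silent modifier, was higher by 0.33 with overlapping ranges (limma adjusted p = 0.0367), and its call ended without frontal WT replicate 3 or 4 or occipital WT replicate 2 or 3 (values 0.28 to 0.30, limma adjusted p 0.102 to 0.139).

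Kcnk2 and Kcnh3 had the opposite regional bias in both genotypes. Kcnk2, a mechanically gated leak channel gene, was 8.85 to 9.22 in frontal and 9.34 to 9.72 in occipital WT (−0.48, limma adjusted p = 0.00388), and 8.88 to 9.23 against 9.24 to 9.66 in KO (−0.40, limma adjusted p = 0.0178). The KO call of Kcnk2 ended without frontal KO replicate 1 or 4 or occipital KO replicate 1 or 3 (values −0.40 to −0.33, limma adjusted p 0.0508 to 0.0889). Kcnh3 was lower in frontal tissue by 0.35 in WT (limma adjusted p = 0.0146; 0.0737 without occipital WT replicate 2, at −0.30) and by 0.39 in KO (limma adjusted p = 0.00707). For both genes the ranges of frontal and occipital arrays did not overlap in either genotype.

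A further 7 members were called in KO and not in WT, each of them higher in occipital tissue. Kcnab1 was 7.88, 8.12, 7.86 and 8.05 in frontal and 8.55, 8.74, 8.55 and 8.48 in occipital KO (−0.60 ± 0.11, SE; limma adjusted p = 0.0016), and Kcnip3 was 7.64 to 7.80 against 8.13 to 8.34 (−0.47, limma adjusted p = 0.00308). Kcna4, an A-type Shaker gene, was 8.01 to 8.23 against 8.38 to 8.81 (−0.48, limma adjusted p = 0.0045). The frontal and occipital KO arrays of these 3 genes did not overlap, and in WT their differences were −0.30, −0.063 and −0.29, not called. Kcnk1 (−0.54), Kcnn3 (−0.42), Kcnj10 (−0.38) and Kcnh8 (−0.34) were called as well, with limma adjusted p of 0.027, 0.0183, 0.0471 and 0.0155.

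Calls of those last 4 genes depended on single arrays. For Kcnk1 the call ended without any frontal KO array or occipital KO replicate 1 or 3 (−0.56 to −0.33, limma adjusted p 0.0504 to 0.0948), and occipital KO replicate 1 read 9.72 against 8.69 to 9.24 on the other 3. For Kcnj10 it ended without any array but frontal KO replicate 1 (−0.41 to −0.25, limma adjusted p 0.0609 to 0.186), for Kcnn3 without frontal KO replicate 4 or occipital KO replicate 1 or 2 (−0.41 to −0.34, 0.0558 to 0.0903), and for Kcnh8 without frontal KO replicate 1 or occipital KO replicate 1 or 2 (−0.32 to −0.29, 0.0503 to 0.0815). Astrocyte markers were lower in frontal than in occipital KO tissue beside Kcnj10 (7 of 7, median −0.44, 2 called) and in WT (7 of 7, median −0.50, 1 called). Of hippocampal markers 0 of 5 were higher in frontal KO tissue (median −0.39) and 2 of 5 in frontal WT tissue (median −0.32), with Lmo1 called lower in both. Of choroid plexus markers it was 0 of 5 in KO (median −0.29) and 1 of 5 in WT (median −0.21, lowest −3.17), with Ttr called lower in WT. The part of these 3 lists in the member values was not tested. Frontal KO arrays had low Y-linked signal, as 1 of the 4 occipital KO arrays did (5.88 against 9.02 to 9.32). With that level as a covariate 3 members were called in KO, Kcnj2, Kcnab1 and Kcnip3. No member was called for a change of the regional difference between genotypes (0 of 79, against 0.416% of all genes; 22 at an unadjusted p under 0.05, against 20.1%). The smallest p belonged to Kcnh2 (0.33, limma adjusted p = 0.115), Kcng2 (−0.42, limma adjusted p = 0.137) and Kcnf1 (0.51, limma adjusted p = 0.138).

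**Figure D4:**
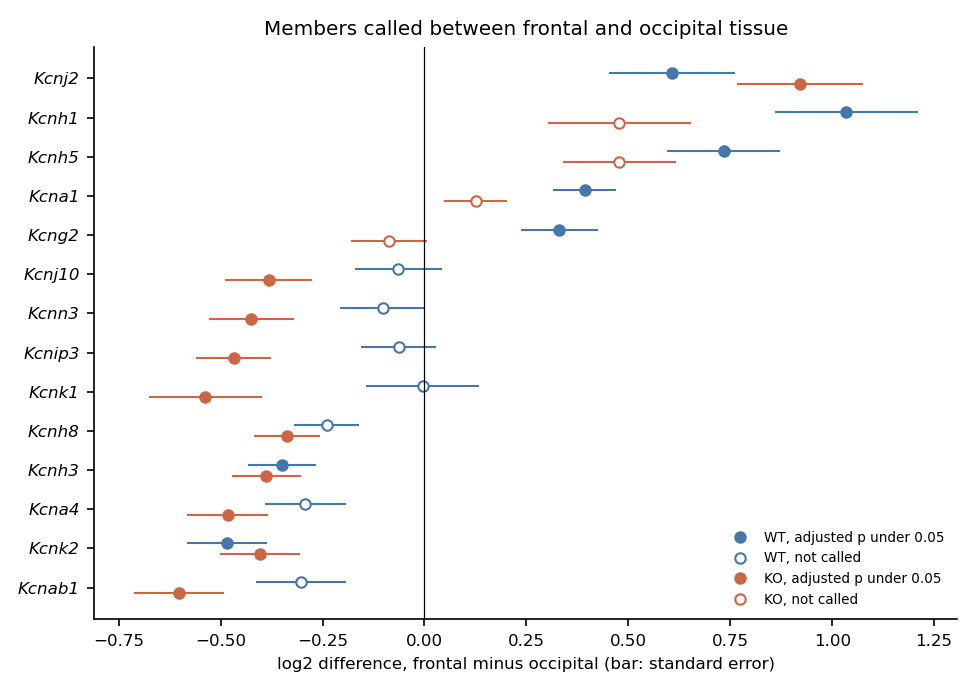
Log2 differences frontal minus occipital (horizontal axis) in WT and KO tissue at P0.5 for the 14 members called in either genotype, with bars of 1 standard error; filled symbols are called by limma (adjusted p under 0.05). Kcnj2, Kcnk2 and Kcnh3 are filled in both genotypes, and the other filled KO symbols lie left of 0.

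Of the 25 other potassium-handling genes, 5 were called in WT (20%, against 6.03% of all genes) and 4 in KO (16%, against 3.22%) between frontal and occipital tissue. Dpp10, a Shal channel partner like Dpp6, was higher in frontal tissue by 0.67 in WT and 0.70 in KO (limma adjusted p = 0.00606 and 0.00413). Lrrc55, an auxiliary subunit of large-conductance channels, was lower in frontal tissue by 0.62 and 0.50 (limma adjusted p = 0.00141 and 0.0094). Lgi1, a secreted protein associated with Shaker channels, was lower by 0.51 and 0.78 (limma adjusted p = 0.0151 and 0.00029). Slc12a2 (−0.55) and Cntnap2 (−0.50), which encodes an axonal protein that clusters Shaker channels, were called in WT, and Atp1b2 (−0.43), a sodium pump subunit, in KO.

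In E14.5 neocortex no member was called, and limma called none of the 18194 genes (0%), a count that was 30 without KO replicate 3 and 2 without KO replicate 1, with 0 members among them. By unadjusted p under 0.05 it was 6 of 79 members, against 5.76% of all genes. It was 5 members that lay above WT without overlap (all genes 7.43%) and 4 below (all genes 3.74%), and the median difference was 0.084, beside 0.056 for all genes. Meningeal and fibroblast markers lay higher in KO in 5 of 5 (median 0.92, mean level 7.47 to 9.31 against 6.95 to 7.10 in WT). Glutamatergic markers lay lower in 5 of 5 (median −0.57, 8.05 to 8.73 against 8.81 to 9.38). Microglial markers were higher in 7 of 7 (median 0.49), thalamic in 6 of 7 (0.57), choroid plexus in 4 of 5 (0.79) and GABAergic interneuron markers in 0 of 9 (−0.35). The astrocyte median was 0.091. In these lists 0 were called, and their part in the member values was not tested. Xist was 9.58 and 10.2 on KO replicates 1 and 2 and 10.8 on WT replicate 2, against 5.01 to 5.41 on the other E14.5 arrays. Kcnq3, which encodes an M-current subunit, had the smallest p. Its signal was 6.53, 6.15 and 6.90 in KO and 8.09, 7.27 and 8.03 in WT, lower by 1.27 ± 0.29 (SE, n = 3 and 3; limma adjusted p = 0.85), while its second probe set differed by −0.17. At P0.5, on the other array type, Kcnq3 differed by 0.19, −0.049 and −0.14 in the 3 regions.

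Kcng1 was 6.10, 5.05 and 5.48 in E14.5 KO and 6.96, 6.16 and 6.46 in WT (−0.99, limma adjusted p = 0.85), and its second, dimmer probe set differed by 0.13. Kcnk6, which encodes a leak channel, was 5.72, 5.35 and 5.10 against 4.88, 4.73 and 5.07 (0.50, limma adjusted p = 0.858). In none of these 3 genes did KO and WT arrays overlap, but the fit called none of them. Of the members called at P0.5, Kcnd2 (0.027), Kcnip1 (0.030) and Kcnh1 (0.11) stood near WT at E14.5, each with overlapping arrays. Kcnd2 was dim on the E14.5 arrays (percentile 24.9 of mean signal), so its small difference there says little. The values are from each gene's brightest probe set, and those of the other probe sets are not given. Kcng1, called lower in frontal KO at P0.5, did not stand near WT at E14.5 (−0.99, not called). For Kcnk1 the E14.5 difference was 0.93 with overlap, KO replicate 1 reading 7.36 and the other KO arrays 5.86 and 5.996. KO replicate 1 is the array farthest from its group at that age (median absolute deviation 0.197).

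**Figure D5:**
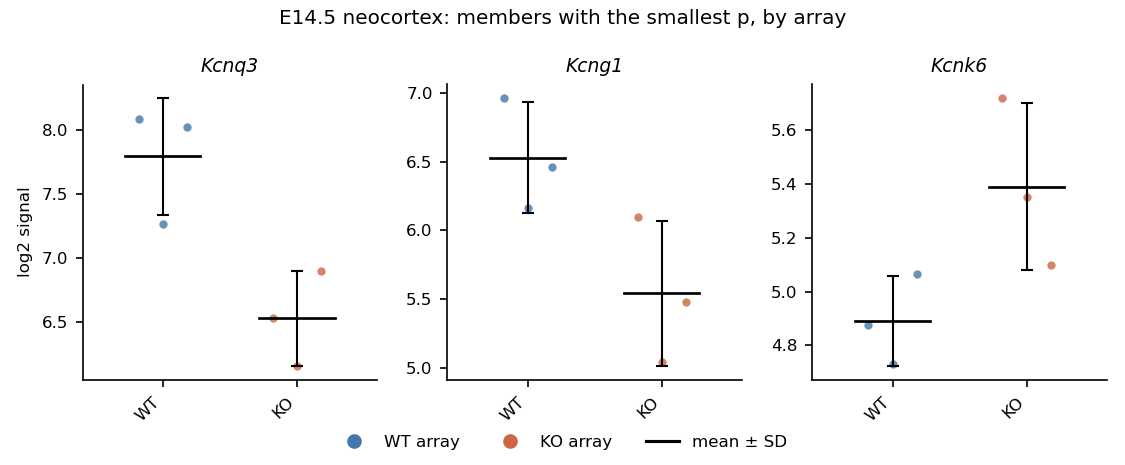
Log2 signal (vertical axis) of the 3 members with the smallest p in E14.5 neocortex, by genotype (horizontal axis); points are arrays, long bars means and error bars SD, and each panel has its own scale. KO and WT arrays do not overlap for Kcnq3, Kcng1 or Kcnk6, and limma called none of them.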

How the data were processed

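RNA of 30 mouse samples was measured on Affymetrix arrays. The authors deposited log2 signals per probe set, made with Affymetrix Expression Console 1.1 and RMA per the submitters' processing notes; the genome build is not given in the sources used here. The labels name 1 array type. At E14.5, however, probe sets carry names of an older 3′ design, so each age was fitted alone and levels were not compared between ages. Probe sets naming 1 gene were kept, the brightest per gene. limma 3.58.1 in R 4.3.3 (lmFit, eBayes with an intensity trend) was fitted to all genes of an age with all its groups, with Benjamini-Hochberg adjustment, and was tested on simulated data. Named genes are the members called in each comparison (at most 10 in a direction) or, where fewer than 3 were called, the 3 with the smallest p; other members were added after their values were seen. The members and lists were chosen with earlier results of these data known. Same-numbered arrays deviated together at E14.5 (correlations 0.125 to 0.445), but the E14.5 values given are from the fit without a replicate block. With or without the block 0 genes were called there. With it the limma adjusted p was 0.547 for Kcnq3 and 0.568 for Kcng1. At P0.5 no comparison had every pair over 0.1 (frontal against occipital WT came nearest, 0.058 to 0.393), so its numbers were not taken as pairs. Mean Y-linked signal was 5.09, 5.28 and 5.99 on frontal KO replicates 1, 2 and 4. On occipital KO replicates 1, 2 and 4 it was 9.32, 9.18 and 9.02, so none of these pairs came from 1 animal. Alternatives changed the probe-set rule, low-signal filter, scaling, trend, block, Y-linked covariate, groups fitted and arrays. The number of arrays limits precision.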

Additional observations from a re-analysis of the deposited data

Results flagged for a closer look

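Among 174 groups of 4 arrays tested for 29 named genes, 6 held an array far from the other 3, where chance gives about 1 in 20. Kcna1 read 7.36 on occipital WT replicate 4, against 7.21 to 7.24. Kcnip2 read 8.11 on occipital WT replicate 1, against 8.44 to 8.49. Kcnv1 read 7.97 on occipital KO replicate 4, against 8.09 to 8.11, and 9.03 on parietal WT replicate 1, against 8.77 to 8.82. On parietal KO replicate 2, which stood apart over all genes, Kcnh3 read 8.21, against 8.46 to 8.48, and Kcnk1 read 8.84, against 8.62 to 8.64.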

How the results depend on the processing

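Of 50 named results none changed sign under any alternative run, and 11 of the 44 called ones stayed called under all of them. Of the frontal KO and WT comparison's 10 lower members, 4 were called after subtraction of array medians, 0 with the Y-linked covariate and 4 in a fit of the compared groups only, and of its 5 higher members 2 with the covariate. Parietal higher calls went from 3 to 6 without both arrays that stood apart, an alternative chosen after seeing the data, and occipital lower calls from 1 to 0 in the fit of the compared groups only. That fit gave 3 members higher in frontal and 0 higher in occipital WT tissue, against 5 and 2. In KO, the 1 member higher in frontal tissue became 3 without the dimmest 30% of genes, 2 with array medians subtracted, 2 after quantile normalization, 2 with the replicate block, 3 in the fit of the compared groups only and 3 without both arrays, and the 9 higher in occipital tissue became 2 with the covariate. The causes were not tested. Over all genes, calls went from 1499 to 247 (covariate) or 687 (compared groups only) in frontal tissue, from 267 to 419 in occipital tissue without both arrays, from 1202 to 287 (compared groups only) or 782 (without both) for regions in WT, and from 643 to 247 (covariate) or 1025 (without both) in KO. Leaving out single arrays moved the all-gene counts too: 749 to 2454 in frontal, 237 to 357 in parietal and 122 to 358 in occipital tissue, 441 to 1917 between regions in WT and 441 to 540 in KO, 29 to 187 for the change of the regional difference, and 0 to 30 at E14.5. For members it gave 5 to 6 higher and 2 to 10 lower frontal calls, 2 to 5 and 1 to 4 parietal, 1 to 5 and 0 to 3 occipital, 4 to 6 and 1 to 5 between regions in WT, 1 to 2 and 4 to 8 in KO, and 0 to 1 and 0 for the change of the regional difference. With the replicate block as a term, 13 members were called in frontal, 8 in parietal and 5 in occipital tissue, 7 between regions in WT and 11 in KO. The block ended the frontal calls of Kcnv1 and Kcnj12. Same-numbered P0.5 arrays correlated at −0.471 to 0.223 in frontal, −0.21 to 0.353 in parietal and −0.011 to 0.151 in occipital tissue, 0.058 to 0.393 between regions in WT (3 of 4 pairs over 0.1) and −0.202 to 0.208 in KO.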
